A study of Mus musculus with 6 samples.

Results

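ATP-binding cassette (ABC) transporter genes were described in 4T1 cells, an established mouse mammary carcinoma line of the BALB/C strain, by messenger RNA sequencing of 6 libraries. Members were the protein-coding rows of the files whose symbol is Abc, a subfamily letter from a to g and a digit. There were 33 members among 19179 genes, of which 14535 were protein coding. Of the genes in the files, 0 lacked reads in all 6 libraries, so family members without any read may be missing from the 33. The 3 libraries labelled breast cancer stem cell, called stem-labelled here, were set against 3 libraries labelled breast cancer cell, called other here. Both kinds of clone grew in RPMI-1640 medium from wells seeded with 1 cell of the same line, no treatment is named for either, and clones were picked after 14 days. The labels give 10 clones of each kind and 3 batches from independent experiments. The rule by which clones were sorted into kinds, the number of clones behind a library and the experiment behind it are not given in the labels, so p-values here measure the spread between these libraries, which may be technical. The question put to the family was which of its transcripts differ between the kinds of clone, with attention to the subfamilies and to the drug efflux pumps Abcb1a, Abcb1b, Abcc1 and Abcg2.

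ABC transporters bind and hydrolyse ATP in paired nucleotide-binding domains and use it to move a substrate across a membrane. Subfamilies A to D and G are membrane proteins that carry lipids, peptides, metal and heme compounds, fatty acyl-CoA, drug conjugates and drugs. ABCE and ABCF proteins have nucleotide-binding domains and no membrane domain, and act on ribosomes. In tumours the family is best known for pumps that expel chemotherapy drugs, and efflux of a fluorescent dye by such pumps has been used to enrich stem-like cells.

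Of the 33 members, 19 reached 1 RPKM (the deposited unit, reads scaled to gene length and to the size of the library) in at least 3 of the 6 libraries and were tested with limma on log2(RPKM + 1). The 14 untested members stayed below 1 RPKM in every library. At a Benjamini-Hochberg adjusted p under 0.05 over all 10097 tested genes, 9 members were called higher in stem-labelled clones, against a background of 29.9% of tested genes called higher. Abce1 was the 1 member called lower, against a background of 25.4%. The other 9 tested members were not called. Those called higher were Abca2, Abca3, Abcb10, Abcb1b, Abcc1, Abcc4, Abcc5, Abcd3 and Abcd4. The values of the stem-labelled libraries all lay above those of the other libraries for 9 members (35.7% of tested genes), Abcb1b not among them, and all below them for Abce1 (27.8% of tested genes). The median change of the 19 tested members was 0.61 on the log2(RPKM + 1) scale, stem-labelled minus other, beside 0.11 over all tested genes. Abcc5 is the 1 member that entered the test through the stem-labelled libraries alone. Fold changes on this scale understate those of low genes.

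**Figure D1:**
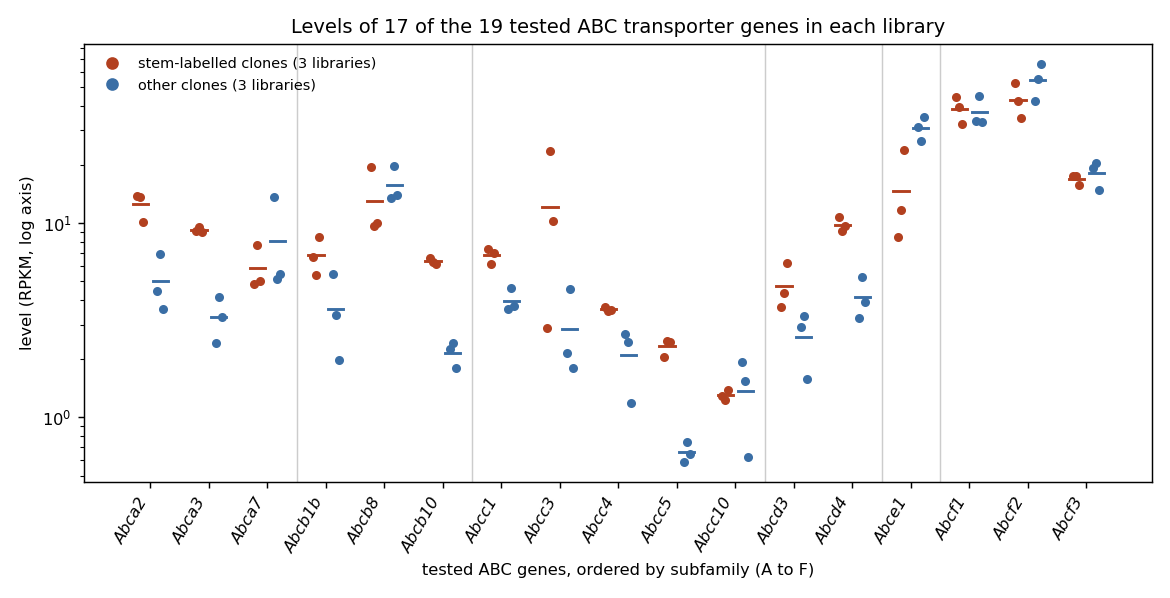
Level of 17 of the 19 tested ABC genes in RPKM (log axis) in each library, ordered by subfamily, with stem-labelled clones left of other clones; points are libraries and bars are means of 3. Abcf1 and Abcf2 have the highest means in both kinds of clone, and Abcb10, Abcc5 and Abcd4 show the stem-labelled points above the other points.

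Gene length moves with these counts. Tested members had a median length of 5729 bases in the files, from 2527 to 12366, against 3634 bases over all tested genes, and 10 of the 19 lay in the longest of 4 equal classes of genes by length. In the shortest class 7.76% of genes were called higher and 51.4% lower, and in the longest class 53.0% were called higher and 7.29% lower. Among the 6655 tested genes within the members' range of lengths, 38.1% were called higher and 15.6% lower. After each library's trend with length was regressed out, 3 of the 19 members were called higher (Abca3, Abcb10 and Abcd4; background 28.3%) and 2 lower, with Abce1 among them (background 22.3%), and the members' median change was 0.17 beside 0.10 over all tested genes. When the trend with GC content was removed as well, 5 members were called higher, with Abca2, Abca3, Abcb10 and Abcd4 among them (background 25.9%), and 1 lower (Abce1; background 22.0%). Whether the length trend is technical or belongs to the kinds of clone cannot be told apart in this design.

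**Figure D2:**
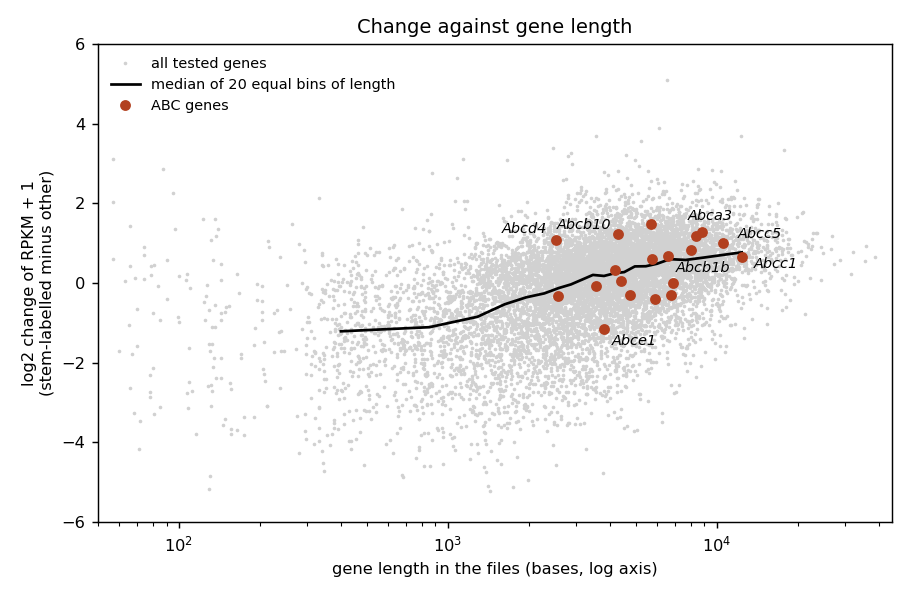
Change of each tested gene (log2 of RPKM + 1, stem-labelled minus other) against gene length in bases (log axis); grey points are all tested genes, red points the 19 ABC genes, and the line joins the medians of 20 bins of equal gene number. The line climbs with length, Abcc1 and Abcc5 sit close to it among the longest genes, Abcd4 and Abcb10 sit well above it, and Abce1 sits below it.

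Depth and scale also differed between the groups. A stem-labelled library held from 21196572 to 22838870 reads in genes, and a library of other clones from 15357608 to 16830762. These are 0.658 to 0.757 times (stem-labelled) and 1.23 to 1.53 times (other) the library totals that the deposited RPKM values imply. Rescaling every library to its reads in genes raised the median change of all tested genes by 0.75, and relative to that moved median 12 of the 19 members lay above it, beside 11 of 19 on the deposited scale. On the rescaled values limma called 13 members higher (background 58.7%) and 0 lower (background 12.3%), and 0 were lower at an unadjusted p under 0.05. Of 4 epithelial markers, all of which were present in every library, Cdh1 was called higher and Krt18 lower (not called after the length and GC correction, adjusted p = 0.0675), and Epcam stood at 55.2 ± 4.78 RPKM in stem-labelled clones and 56.2 ± 2.51 RPKM in other clones (SD, n = 3 each). Leukocyte markers (2 of 6 in the files) reached at most 0.00916 RPKM and endothelial markers (3 of 4 in the files) at most 0.0635 RPKM. Adipocyte markers (0 of 3 in the files) had no values. Of 4 fibroblast markers, Col1a1, Col1a2 and Dcn stayed under 1 RPKM, while Pdgfra stood at 2.59 ± 0.869 RPKM in stem-labelled clones and 0.650 ± 0.267 RPKM in other clones (log2 change 1.10, adjusted p = 0.0032). Pdgfra entered the test through the stem-labelled libraries alone and was not called after the length correction (0.45, adjusted p = 0.0877) or the length and GC correction (0.15, adjusted p = 0.570). The summed level of the fibroblast list was 1.68 to 3.38 RPKM in stem-labelled libraries and 0.396 to 1.006 RPKM in other libraries, and its part in the ABC results was not tested. In bulk libraries, fewer cells that carry a transcript and less of it per cell cannot be told apart.

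Promoters are shown for the 4 members with the largest changes among 6 called members whose RefSeq start equals the start in the files. They are read from RefSeq on GRCm38.p6, from 250 bases before to 50 bases after the start, on the strand of the gene, and place 3 members called higher beside the member called lower. Capitals mark matches, on either strand, to GGGCGG (the GC box), CCAAT (the CCAAT box), TATAAA (the TATA box) and CACGTG (an E-box, which reads the same on both strands). A reverse match to CCAAT reads ATTGG, and no matches overlap in these 4 sequences.
Abcb10 (called higher), chr8:123983073-123983372, minus strand: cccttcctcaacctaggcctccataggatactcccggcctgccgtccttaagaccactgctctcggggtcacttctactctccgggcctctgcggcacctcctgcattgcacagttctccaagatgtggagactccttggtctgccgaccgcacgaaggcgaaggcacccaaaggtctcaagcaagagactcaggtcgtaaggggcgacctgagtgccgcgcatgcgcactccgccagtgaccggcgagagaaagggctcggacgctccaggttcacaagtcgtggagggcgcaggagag
Abcc5 (called higher), chr16:20426345-20426644, minus strand: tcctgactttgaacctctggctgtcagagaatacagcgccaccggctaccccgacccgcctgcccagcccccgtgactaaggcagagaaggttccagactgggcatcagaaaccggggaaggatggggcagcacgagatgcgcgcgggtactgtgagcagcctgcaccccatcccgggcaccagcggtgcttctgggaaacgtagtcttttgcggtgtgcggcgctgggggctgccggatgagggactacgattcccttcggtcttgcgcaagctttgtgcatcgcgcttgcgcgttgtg
Abcb1b (called higher), chr5:8797897-8798196, plus strand: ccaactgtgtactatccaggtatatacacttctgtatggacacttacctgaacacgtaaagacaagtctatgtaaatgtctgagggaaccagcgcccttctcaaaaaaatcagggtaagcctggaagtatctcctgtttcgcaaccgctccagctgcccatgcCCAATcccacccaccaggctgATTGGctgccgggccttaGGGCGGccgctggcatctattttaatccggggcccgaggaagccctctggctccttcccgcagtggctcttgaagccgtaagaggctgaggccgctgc
Abce1 (called lower), chr8:79711691-79711990, minus strand: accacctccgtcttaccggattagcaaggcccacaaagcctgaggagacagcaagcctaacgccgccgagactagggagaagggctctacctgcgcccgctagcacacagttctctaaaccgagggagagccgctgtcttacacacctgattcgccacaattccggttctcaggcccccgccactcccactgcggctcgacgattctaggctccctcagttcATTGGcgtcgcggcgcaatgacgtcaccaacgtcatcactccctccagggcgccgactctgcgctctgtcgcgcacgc
The Abcb1b promoter holds 2 CCAAT boxes and 1 GC box, the Abce1 promoter 1 CCAAT box, and the Abcb10 and Abcc5 promoters none of these letters. Of 32851 mouse promoters of the same length, 35.7% hold a GC box, 37.4% a CCAAT box, 13.6% a TATA box and 7.15% the E-box. All 4 promoters are rich in G and C, at 62.0% for Abcb10, 63.0% for Abcc5, 55.0% for Abcb1b and 61.7% for Abce1. RefSeq promoters were matched for 24 of the 33 members.

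The drug efflux pumps divided by level. Rodents carry a pair of P-glycoprotein genes, Abcb1a and Abcb1b, neighbours on the plus strand of chromosome 5 in GRCm38 (Abcb1a at chr5:8660077-8748575, Abcb1b at chr5:8798147-8866315), where humans carry ABCB1 alone. P-glycoprotein exports many uncharged and cationic drugs, such as anthracyclines and taxanes. Abcb1b stood at 6.70, 5.43 and 8.52 RPKM in stem-labelled replicates 1 to 3, against 5.47, 3.37 and 1.96 RPKM in other replicates 1 to 3. The groups overlap, with stem-labelled replicate 2 just below other replicate 1. Abcb1b was called higher, with a log2 change of 0.83 ± 0.29 (SE, adjusted p = 0.0369). The call was lost without stem-labelled replicate 1 (adjusted p = 0.0768) or 3 (adjusted p = 0.125), without other replicate 2 (adjusted p = 0.0629) or 3 (adjusted p = 0.112), and after the length correction, where the change was 0.27 (adjusted p = 0.424).

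Abcb1a stayed near the bottom of the scale and was not tested. Its values were 0.0769, 0.114 and 0.0567 RPKM in stem-labelled clones, from 12, 19 and 10 reads, against 0.704, 0.220 and 0.0544 RPKM in other clones, from 46, 15 and 3 reads. The groups overlap, and other replicate 1 alone holds most of the other clones' reads. Without the filter on low values the difference was -0.26 on the log2(RPKM + 1) scale with an adjusted p of 0.306. Per unit length Abcb1b exceeded Abcb1a in every library, by 87.1, 47.5 and 150.3 times in stem-labelled clones and by 7.77, 15.3 and 36.1 times in other clones.

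The ratio has a limit in the sequence of the pair. Their coding sequences, each of 3828 bases, share a longest identical run of 338 bases, and 17.0% of the 50-base stretches of the Abcb1a transcript occur in another gene's transcripts, as do 18.3% of those of Abcb1b. How the authors' counting treated reads that fit both genes is not given in the sources used here, so a small count for Abcb1a is uncertain. Opposite-strand exons of Gm42686 also cover 10.1% of the exon bases of Abcb1a, and the strand of counting is not given either. Part of the shared run is shown because no read that lies within it can name its gene. It covers 135 bases from coding base 1519 of Abcb1a and coding base 1528 of Abcb1b, and the capitals mark the codons of the signature motif LSGGQ, which forms part of the ATP site of ABC proteins.
Abcb1a and Abcb1b shared run: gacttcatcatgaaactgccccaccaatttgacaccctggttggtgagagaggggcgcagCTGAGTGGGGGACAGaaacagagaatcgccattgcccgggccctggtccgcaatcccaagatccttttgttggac

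Abcc1 (MRP1), which exports glutathione and glutathione conjugates such as leukotriene C4, is the longest tested member at 12366 bases. It stood at 7.36, 6.18 and 7.03 RPKM in stem-labelled clones and at 3.61, 4.61 and 3.73 RPKM in other clones. The groups do not overlap. Abcc1 was called higher, with a change of 0.66 ± 0.19 (adjusted p = 0.0149), and the call was lost without stem-labelled replicate 1 (0.61, adjusted p = 0.0610). The direction turned after the length correction (-0.062, adjusted p = 0.808) and after the length and GC correction (-0.40, adjusted p = 0.0693).

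Abcg2, the breast cancer resistance protein of the dye efflux assay, ran at trace level. It had 0, 0.0566 and 0.0952 RPKM in stem-labelled clones, from 0, 14 and 25 reads, against 0.278, 0.345 and 0.658 RPKM in other clones, from 27, 35 and 54 reads. All stem-labelled values lay below all other values, although each stem-labelled library was the deeper one. The count of 0 in stem-labelled replicate 1 allows a level of up to 0.0129 RPKM at 3 reads, a limit that covers counting error only. Below 1 RPKM in every library, Abcg2 did not enter the test. Without the filter, where 16.0% of all genes in the files were called higher and 12.1% lower, Abcg2 was called lower at a difference of -0.43 ± 0.11 on the log2(RPKM + 1) scale (adjusted p = 0.0284). Its mean was 0.0506 ± 0.0479 RPKM in stem-labelled clones and 0.427 ± 0.203 RPKM in other clones (SD, n = 3 each).

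**Figure D3:**
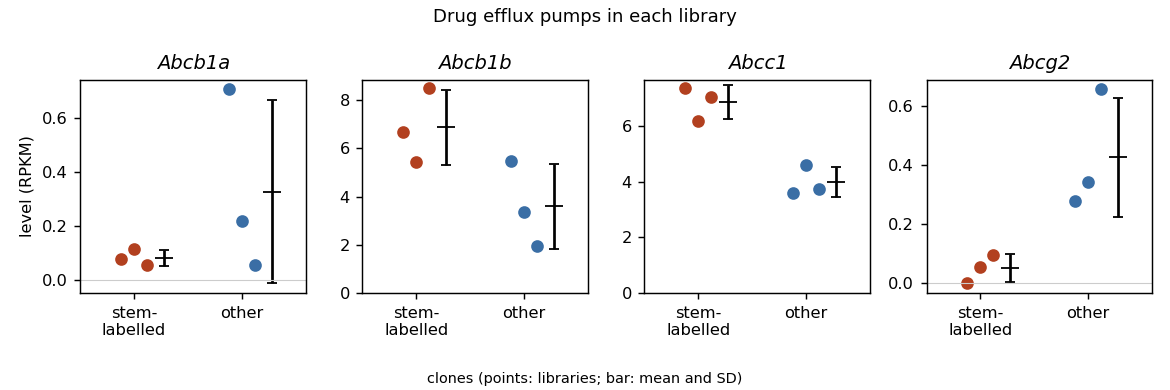
Levels of the 4 drug efflux pumps in RPKM, each panel with its own axis from 0, stem-labelled clones left of other clones; points are libraries and bars are the mean with its SD (n = 3 each). Abcb1b and Abcc1 lie between 1.96 and 8.52 RPKM, with the Abcb1b groups overlapping and the Abcc1 groups apart, while Abcb1a and Abcg2 stay below 1 RPKM in every library.

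Of the remaining expressed ABCC pumps, Abcc5 and Abcc4 were called higher. Abcc5 (MRP5), an exporter of cyclic nucleotides, stood at 2.05, 2.47 and 2.44 RPKM in stem-labelled clones and at 0.586, 0.743 and 0.647 RPKM in other clones. The groups were well apart, and each was tight. The change was 0.999 ± 0.169 (adjusted p = 0.00109). It was 0.33 after the length correction (adjusted p = 0.136) and -0.025 after the length and GC correction (adjusted p = 0.907), and Abcc5 is 10592 bases long. Abcc4 (MRP4), which exports cyclic nucleotides and prostaglandins, had 3.70, 3.53 and 3.58 RPKM in stem-labelled clones and 2.68, 2.43 and 1.18 RPKM in other clones. The stem-labelled libraries were nearly equal and other replicate 3 was the lowest. The change of Abcc4 was 0.61 ± 0.23 (adjusted p = 0.0463), and the call was lost without any 1 of the stem-labelled libraries (adjusted p 0.0958 to 0.115) and without other replicate 3 (0.37, adjusted p = 0.171). It was also lost after the length correction (0.24, adjusted p = 0.389).

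Abcc3 (MRP3), an exporter of glucuronide conjugates and bile salts, had the largest SD of any member among the stem-labelled libraries. Its level was 2.87, 23.4 and 10.2 RPKM in stem-labelled clones and 2.14, 4.597 and 1.80 RPKM in other clones. Stem-labelled replicate 2 was far above the rest, and replicate 1 fell inside the range of the other clones. The change of 1.48 ± 0.57 was not called (adjusted p = 0.0503). Abcc3 was called without stem-labelled replicate 1 (2.18, adjusted p = 0.00255) or without other replicate 2 (1.78, adjusted p = 0.0347), and the change was 0.85 without stem-labelled replicate 2 (adjusted p = 0.154). Abcc10 (MRP7), whose human counterpart transports taxanes, had 1.29, 1.22 and 1.38 RPKM in stem-labelled clones and 1.92, 1.54 and 0.623 RPKM in other clones. Its groups overlap, and its change was 0.00 ± 0.23 (adjusted p = 0.993).

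Among the lipid transporters of subfamily A, both Abca2 and Abca3 were called higher. Abca3, which loads phospholipids into the lamellar bodies of lung alveolar cells, stood at 9.08, 9.52 and 9.02 RPKM in stem-labelled clones and at 2.42, 4.16 and 3.30 RPKM in other clones. All stem-labelled values exceeded all others by more than 2-fold. Its change was 1.27 ± 0.21 (adjusted p = 0.000927), and 0.67 after the length correction (adjusted p = 0.0274). Opposite-strand exons of D330041H03Rik cover 9.75% of the exon bases of Abca3, and that gene had 0.440, 0.334 and 0.770 RPKM in stem-labelled clones and 0.0224, 0.171 and 0.0795 RPKM in other clones. Since the strand of counting is not given in the sources used here, reads of the pair in the overlap cannot be told apart.

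Abca2, an endolysosomal transporter linked to sphingolipid and sterol handling and abundant in oligodendrocytes, had 13.7, 13.5 and 10.1 RPKM in stem-labelled clones and 4.48, 6.96 and 3.62 RPKM in other clones. The groups were apart, and the change was 1.19 ± 0.25 (adjusted p = 0.00318). It was 0.61 after the length correction (adjusted p = 0.0775) and 0.97 after the length and GC correction (adjusted p = 0.00354). Abca7, a phospholipid transporter tied to phagocytosis, had 4.85, 7.75 and 5.04 RPKM in stem-labelled clones and 13.5, 5.18 and 5.46 RPKM in other clones. Other replicate 1 stood apart from the remaining libraries. The change of -0.30 ± 0.34 was not called (adjusted p = 0.468), and was 0.10 without other replicate 1 (adjusted p = 0.757). Abca1, the cholesterol exporter that feeds apolipoprotein A-I and a textbook target of the LXR receptors, had 17 reads in all stem-labelled libraries and 7 in all other libraries, and at most 0.0450 RPKM.

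Of the mitochondrial members of subfamily B, Abcb10 was called higher. Abcb10, an inner-membrane transporter needed for hemoglobin synthesis in erythroid cells, stood at 6.60, 6.32 and 6.12 RPKM in stem-labelled clones and at 2.24, 2.41 and 1.80 RPKM in other clones. Both groups were tight and well apart, at 6.35 ± 0.242 RPKM in stem-labelled clones and 2.15 ± 0.314 RPKM in other clones (SD, n = 3 each). The change was 1.23 ± 0.18 (adjusted p = 0.000559, the smallest among the members) and 1.05 after the length correction (adjusted p = 0.00119). In every fit that left out a library Abcb10 stayed called, at 1.14 to 1.29. Opposite-strand exons of Gm45890 cover 10.3% of its exon bases, and that gene had no values in the files. Its promoter, shown above, holds none of the 4 motifs searched.

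Abcb8, an inner-membrane protein linked to mitochondrial iron handling, had 19.4, 9.69 and 9.94 RPKM in stem-labelled clones and 13.4, 19.6 and 13.9 RPKM in other clones. Stem-labelled replicate 1 reached the range of the other clones, and the change was -0.30 ± 0.29 (adjusted p = 0.404).

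In subfamily D, Abcd4 and Abcd3 were called higher. Abcd4, a lysosomal protein that works in the release of cobalamin (vitamin B12), had 10.7, 9.05 and 9.67 RPKM in stem-labelled clones and 3.25, 5.28 and 3.93 RPKM in other clones. The groups do not overlap. Its change was 1.09 ± 0.21 (adjusted p = 0.00215) and 1.37 after the length correction (adjusted p = 0.000879). The length of 2527 bases that the files give it is short of the 8006 exon bases of the GENCODE M21 annotation, so its level per length and its correction for length both depend on that choice. Abcd3 (PMP70), a peroxisomal importer of branched-chain acyl-CoA and bile acid intermediates, had 3.71, 4.36 and 6.19 RPKM in stem-labelled clones and 2.90, 3.32 and 1.58 RPKM in other clones. The groups do not overlap, but lie close at their edges. The change of Abcd3 was 0.69 ± 0.25 (adjusted p = 0.0437). The call was lost without stem-labelled replicate 2 or 3 or other replicate 1 or 3 (adjusted p 0.0595 to 0.147) and after the length correction (0.23, adjusted p = 0.420).

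**Figure D4:**
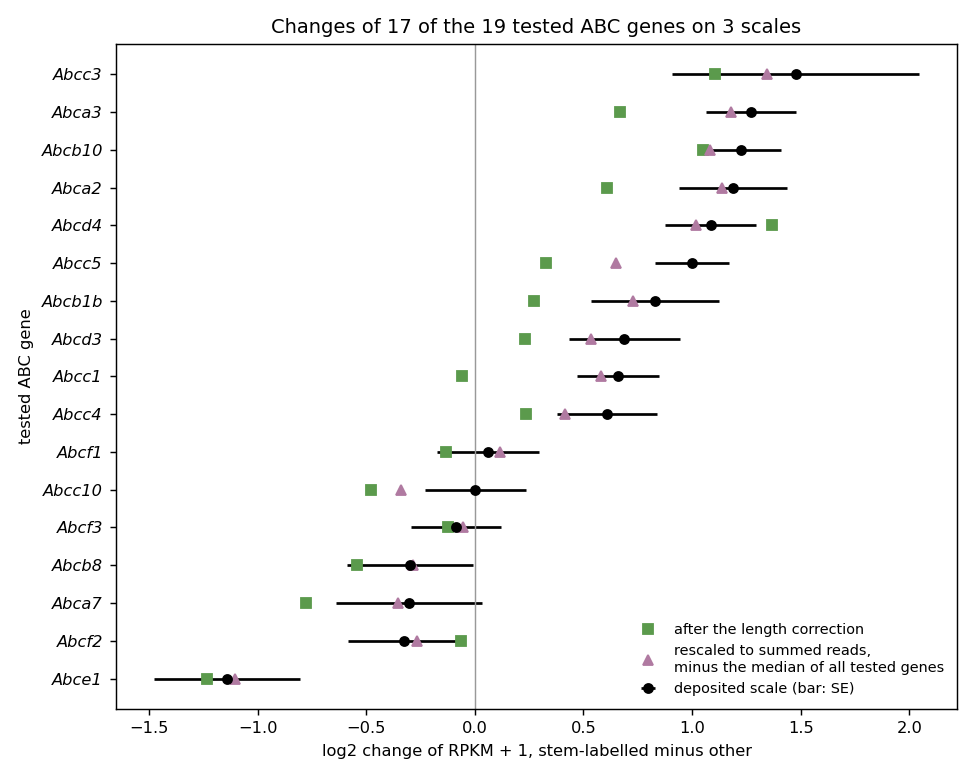
Change of 17 of the 19 tested ABC genes (log2 of RPKM + 1, stem-labelled minus other), sorted by the change on the deposited scale (circles with SE), with the values after the length correction (squares) and after rescaling to summed reads, minus the median of all tested genes (triangles). Abca2, Abca3, Abcb10, Abcb1b, Abcc3, Abcc4, Abcc5, Abcd3 and Abcd4 lie right of 0 on all 3 scales. Abca7, Abcb8, Abce1, Abcf2 and Abcf3 lie left of 0 on all 3 scales. Abcc1 lies right of 0 on the deposited scale and at -0.062 after the length correction.

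By group mean, the ribosome-acting members were the most abundant of the family. In stem-labelled replicate 1, however, Abce1 lay below Abcb8, Abca2, Abcd4 and Abca3, and Abcf3 lay below Abcb8. In stem-labelled replicate 2, Abcc3 lay above Abcf3 and Abce1, and Abca2 lay above Abce1. Abce1, which splits ribosomal subunits after termination so that they can be used again, stood at 8.48, 11.6 and 23.8 RPKM in stem-labelled clones and at 31.3, 26.4 and 35.1 RPKM in other clones. All stem-labelled values lay below all others, with stem-labelled replicate 3 close to the other clones. Abce1 was called lower, with a change of -1.14 ± 0.34 (adjusted p = 0.0168). The call was lost without stem-labelled replicate 1 (-0.84, adjusted p = 0.0663) or 2 (-1.05, adjusted p = 0.0561), with no filter on low values (adjusted p = 0.0627) or after upper-quartile scaling (-0.89, adjusted p = 0.0580). Abce1 was still called after the length correction (-1.23, adjusted p = 0.0141). The files give Abce1 3813 bases, against 6004 exon bases in GENCODE M21, so its level per length and this correction depend on that choice. Rescaling to reads in genes left a change of -0.25 (adjusted p = 0.543), which is -1.11 relative to the moved median of all tested genes.

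None of the 3 ABCF genes was called on the deposited scale. Abcf2 had 52.4, 42.6 and 34.5 RPKM in stem-labelled clones and 42.6, 55.1 and 66.0 RPKM in other clones, with a change of -0.33 ± 0.26 (adjusted p = 0.301). Abcf1, which takes part in translation initiation, had 44.4, 39.4 and 32.3 RPKM in stem-labelled clones and 33.5, 45.1 and 32.9 RPKM in other clones, with a change of 0.06 ± 0.23 (adjusted p = 0.841). Abcf3, a relative of yeast Gcn20, had 17.5, 17.4 and 15.7 RPKM in stem-labelled clones and 19.3, 20.3 and 14.8 RPKM in other clones, with a change of -0.09 ± 0.21 (adjusted p = 0.739). All 3 overlapped between the groups, and 0 passed an unadjusted p under 0.05 in limma. After rescaling, Abcf1 (0.98) and Abcf3 (0.80) were called higher, and stood at 0.12 (Abcf1) and -0.057 (Abcf3) relative to the moved median.

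The untested members were traces. Abcb9, a lysosomal peptide transporter related to the TAP pumps, was the highest of them at 0.930 RPKM in stem-labelled replicate 2, and had 274 reads over the stem-labelled libraries and 77 over the other libraries. Abcg4, a sterol transporter of neural tissue, reached 0.306 RPKM. The other untested members besides Abcb1a and Abcg2 each stayed below 0.1 RPKM, 10 genes in all: Abca1, Abca4, Abcb4, Abcb5, Abcb6, Abcb11, Abcc2, Abcc6, Abcc8 and Abcc12. They include genes known for liver (Abcb4, Abcb11, Abcc2 and Abcc6), retina (Abca4) and the pancreatic beta cell (Abcc8). Of the 14 untested members, 4 had no read in any library of other clones (Abcb4, Abcb6, Abcc6 and Abcc12, with 9, 10, 2 and 3 reads over the deeper stem-labelled libraries), and Abcb5 had none in any stem-labelled library and 2 reads over the other libraries. Abcb4 had 2, 1 and 6 reads in stem-labelled replicates 1 to 3, so its groups do not overlap. In limma without the filter on low values none of these genes was called (adjusted p 0.474 to 0.813). No difference is read from counts of this size at these depths. For Abcb6, same-strand exons of Gm29253 cover 55.2% of the exon bases, so its trace count is uncertain.

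On the deposited scale the family's summed level overlapped between the groups, while its split into membrane and ribosome-acting members did not. The summed level was 221, 221 and 204 RPKM in stem-labelled clones and 193, 219 and 199 RPKM in other clones. As a share of all reads in genes, the members took 0.141%, 0.147% and 0.155% in stem-labelled clones and 0.0618%, 0.0779% and 0.0532% in other clones, and there the groups do not overlap. Membrane subfamilies A to D and G summed to 98.7, 110.1 and 97.2 RPKM in stem-labelled clones and to 66.8, 71.9 and 49.8 RPKM in other clones. The ribosome-acting subfamilies E and F summed to 123, 111 and 106 RPKM in stem-labelled clones and to 127, 147 and 149 RPKM in other clones. On this scale the groups are apart in both sums, with stem-labelled clones higher in the membrane sum and lower in the ribosome-acting sum. Within the ribosome-acting sum, Abce1 was apart between the groups, but the ABCF part overlapped. ABCF summed to 114, 99.4 and 82.6 RPKM in stem-labelled clones and to 95.3, 120 and 114 RPKM in other clones. The direction of the ribosome-acting sum turned after rescaling to reads in genes, at 162, 147 and 162 RPKM in stem-labelled clones and 89.7, 119 and 97.3 RPKM in other clones. The rescaled membrane sum was 130.4, 146 and 148 RPKM in stem-labelled clones and 47.3, 58.2 and 32.6 RPKM in other clones. The ratio of the membrane sum to the ribosome-acting sum, which does not depend on library scaling, was 0.804, 0.992 and 0.913 in stem-labelled clones and 0.528, 0.489 and 0.335 in other clones. Every stem-labelled library stood above every library of other clones in this ratio, with means of 0.903 ± 0.0945 in stem-labelled clones and 0.451 ± 0.102 in other clones (SD, n = 3 each). These sums are descriptions without a test. Length moves with the split: the 4 tested E and F members are 2569 to 4410 bases long, and the 15 tested A to D members 2527 to 12366 bases.

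**Figure D5:**
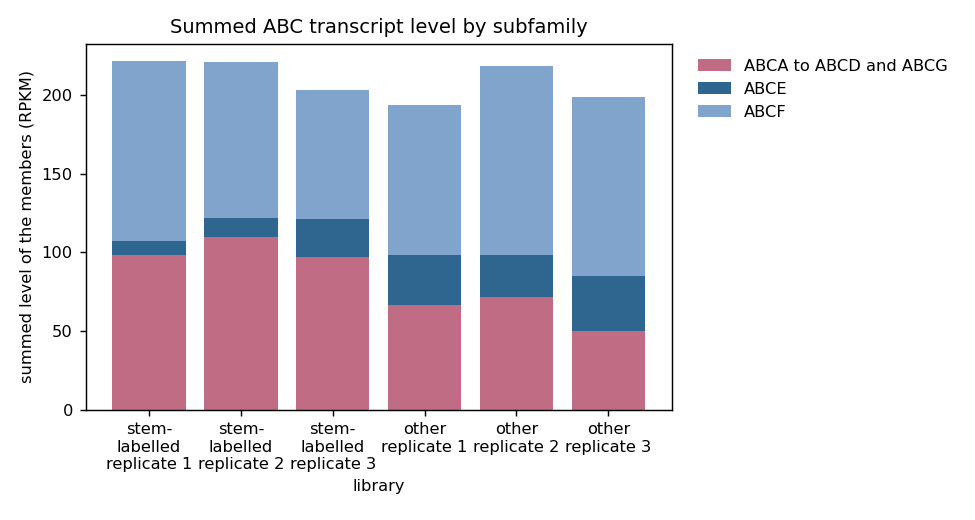
Summed level of the members in RPKM for each library, stacked as the membrane subfamilies (ABCA to ABCD and ABCG), ABCE and ABCF, with the 3 stem-labelled libraries left of the 3 other libraries. The membrane subfamilies take up more of the stem-labelled bars, and ABCE takes up more of the other bars.

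Counts of called members by subfamily stand beside 29.9% of all tested genes called higher, and 38.1% of those within the members' range of lengths. ABCA held 27.6 ± 3.29 RPKM in stem-labelled clones and 16.4 ± 4.07 RPKM in other clones (SD, n = 3 each, here and in the next sentences), with 2 of 3 tested members called higher and a median change of 1.19. ABCC held 26.2 ± 9.85 RPKM in stem-labelled clones and 11.0 ± 3.00 RPKM in other clones, with 3 of 5 called higher and a median of 0.66, and most of its spread came from Abcc3. ABCE is Abce1 alone. ABCF held 98.7 ± 15.9 RPKM in stem-labelled clones and 109.8 ± 12.999 RPKM in other clones, with 0 of 3 called and a median of -0.09, and ABCG held 0.102 ± 0.0769 RPKM in stem-labelled clones and 0.618 ± 0.291 RPKM in other clones with no tested member. The difference of ABCF was within the spread between libraries. After the length correction the medians were 0.61 for ABCA, 0.24 for ABCC and -0.12 for ABCF.

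By group mean of the level per length, the 5 highest members were the same in both kinds of clone, Abcf2, Abcf1, Abcf3, Abce1 and Abcb8. In stem-labelled clones they averaged 43.2 ± 8.95 (Abcf2), 38.7 ± 6.07 (Abcf1), 16.9 ± 0.990 (Abcf3), 14.6 ± 8.10 (Abce1) and 13.01 ± 5.53 RPKM (Abcb8). The ranges of Abcf2 and Abcf1 overlapped between libraries, but within each library of either kind Abcf2 stood above Abcf1. The order of the last 3 changed between the stem-labelled libraries. The fifth place in stem-labelled clones is shared within the spread with Abca2 (12.5 ± 2.02 RPKM) and Abcc3 (12.2 ± 10.4 RPKM), and Abca2 stood above Abcb8 in stem-labelled replicates 2 and 3. In other clones they averaged 54.5 ± 11.7 (Abcf2), 37.2 ± 6.85 (Abcf1), 30.9 ± 4.36 (Abce1), 18.1 ± 2.92 (Abcf3) and 15.7 ± 3.44 RPKM (Abcb8), of which each neighbouring pair but Abce1 and Abcf3 overlapped between libraries. There Abce1 stood above Abcf3 in every library, whereas in stem-labelled clones it was below Abcf3 in replicates 1 and 2. From 17 to 19 members reached 1 RPKM in a library of either kind.

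Tap1 and Tap2, the subfamily B peptide pumps that load MHC class I and that the symbol pattern misses, were not called. Tap2 had 3.46, 9.53 and 5.73 RPKM in stem-labelled clones and 4.11, 4.17 and 2.71 RPKM in other clones (0.57 ± 0.31, adjusted p = 0.145). Tap1 had 2.47, 4.70 and 3.47 RPKM in stem-labelled clones and 2.76, 3.24 and 0.871 RPKM in other clones (0.52 ± 0.32, adjusted p = 0.193). Of 6 peptide loading partners, 3 were called higher and 1 lower, beside 29.9% of all tested genes called higher and 25.4% lower. After the length correction 4 were called higher and 0 lower, beside 28.3% and 22.3%. Tapbpl, a peptide editor of MHC class I, had a change of 1.66 ± 0.22 (adjusted p = 0.000328), and B2m, the class I light chain, -1.25 ± 0.36 (adjusted p = 0.0161), which was -0.05 after the length correction (adjusted p = 0.908).

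Genes that supply or regulate the pumps moved in both directions. Their counts stand beside 29.9% of all tested genes called higher and 25.4% lower, and 28.3% and 22.3% after the length correction. Of 14 glutathione genes tested, which make or conjugate the co-substrate of the ABCC pumps, 2 were called higher and 6 lower, with a median change of -0.43, and after the length correction 3 were called higher and 3 lower, with a median of 0.22. Gclc, the catalytic subunit of the rate-limiting enzyme of glutathione synthesis, stood at 7.14 ± 0.729 RPKM in stem-labelled clones and 1.503 ± 0.114 RPKM in other clones, a change of 1.70 ± 0.18 (adjusted p = 0.000149). Mgst3, a microsomal glutathione transferase, stood at 39.6 ± 19.2 RPKM in stem-labelled clones and 278 ± 118 RPKM in other clones, a change of -2.80 ± 0.45 (adjusted p = 0.000896). Of 6 tested regulators of xenobiotic and stress responses, 4 were called higher and 1 lower, and after the length correction 3 were called higher and 1 lower. Of the 4, 1 entered the test through the stem-labelled libraries alone. Nfe2l2 (NRF2), which drives glutathione and efflux genes, stood at 24.4 ± 1.05 RPKM in stem-labelled clones and 9.17 ± 1.24 RPKM in other clones, a change of 1.33 ± 0.20 (adjusted p = 0.000549). After the length correction the changes were 1.69 for Gclc (adjusted p = 0.000215), -1.73 for Mgst3 (adjusted p = 0.00995) and 1.24 for Nfe2l2 (adjusted p = 0.000853), all still called.

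Partners of the lipid and peroxisomal members were called in both directions, beside 29.9% of all tested genes called higher and 25.4% lower. Of 12 tested sterol efflux genes and LXR targets, 3 were called higher and 3 lower, and after the length correction 2 were called higher and 3 lower. Npc1, the lysosomal cholesterol exporter, changed by 1.17 ± 0.17 (adjusted p = 0.000458). It entered the test through the stem-labelled libraries alone, and its change was 0.49 after the length correction (adjusted p = 0.0292) and 0.34, not called, after the length and GC correction (adjusted p = 0.117). Lipa, the lysosomal acid lipase, changed by 1.15 ± 0.21 (adjusted p = 0.00142), while Rxrb, a partner of the LXR receptors, changed by -1.76 ± 0.33 (adjusted p = 0.0018). Of 13 tested peroxisomal genes, 3 were called higher and 3 lower, and after the length correction 2 were called higher and 4 lower. Of the 3 called higher on the deposited scale, 1 entered the test through the stem-labelled libraries alone. Pex16, a factor of peroxisome membrane assembly, changed by -3.24 ± 0.31 (adjusted p = 0.000131), and by -2.57 after the length correction (adjusted p = 0.000277).

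Of 15 heme and iron-sulfur genes beside the mitochondrial members, 4 were called higher and 5 lower, and after the length correction 6 were called higher and 5 lower. Slc25a37 (mitoferrin 1), the mitochondrial iron importer of erythroid cells that binds ABCB10 in mouse, stood at 11.0 ± 2.18 RPKM in stem-labelled clones and 2.77 ± 0.721 RPKM in other clones, a change of 1.67 ± 0.23 (adjusted p = 0.000377). Glrx5, a mitochondrial glutaredoxin of iron-sulfur assembly, stood at 135 ± 34.8 RPKM in stem-labelled clones and 466 ± 84.5 RPKM in other clones, a change of -1.80 ± 0.30 (adjusted p = 0.000994), which was -0.64 after the length correction (adjusted p = 0.0409). The change of Slc25a37 was 1.27 after the length correction (adjusted p = 0.00115) and 0.95 after the length and GC correction (adjusted p = 0.00352). Of 14 tested genes of ribosome recycling and quality control, 2 were called higher and 5 lower, and after the length correction 2 were called higher and 6 lower. Eif6, which keeps free large ribosomal subunits from joining small ones, stood at 62.5 ± 16.5 RPKM in stem-labelled clones and 470.2 ± 169 RPKM in other clones, a change of -2.87 ± 0.33 (adjusted p = 0.000202), and Mcts1, a recycling factor, changed by -2.67 ± 0.33 (adjusted p = 0.000275). After the length correction Mcts1 changed by -1.88 (adjusted p = 0.00108) and Eif6 by -2.66 (adjusted p = 0.000275). These shares called stand beside the same backgrounds of 29.9% higher and 25.4% lower over all tested genes, and 28.3% higher and 22.3% lower after the length correction.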

How the data were processed

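The deposited values are RPKM per gene, made by the authors, with 1 file for each of the 6 libraries. Per the submitters' processing notes, TopHat2 2.0.9, Bowtie2 2.0.6 and mm9 were involved, with no role stated, and the counting program, its strand setting and its treatment of reads that fit several genes are not given in the sources used here. Gene coordinates in the files match GRCm38 (of the identifiers, 99.6% are in GENCODE M21, and 80.6% of these have the same start and end), so that build is given.

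The tissue labels gave the groups, and sample titles the replicate numbers. Values times gene length were whole multiples of a fixed step for 100% of values (tolerance 0.01), which returned the reads. For a 1 kilobase gene, a level of 0.0311 to 0.0351 RPKM in stem-labelled libraries and 0.0804 to 0.0993 RPKM in other libraries is 1 read, so trace levels rest on few reads. The test was limma 3.58.1 in R 4.3.3 with a variance trend on log2(RPKM + 1), over all 6 libraries with group as the only term, two-sided, with Benjamini-Hochberg adjustment over the genes at 1 RPKM or more in at least 3 libraries. It was tested on simulated data with 200 changed genes. For the length correction, the difference of each value from its gene's mean was fitted within a library by a natural spline of log2 gene length (5 degrees of freedom) and the fit subtracted, and the GC correction added a spline of GC content. Shared sequence was counted in stretches of 50 bases of the longest transcripts in GENCODE M21.

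Every tested member and the 4 efflux pumps were named with values, except 2 tested members and some list genes that are not reported here but stay in the counts, the other members by name and highest level, and list genes from the 4 with the smallest p in each list, B2m included. The members, lists and rules were chosen with earlier results of these data known. The alternatives were the replicate block, each library left out, corrections for length and GC content, no filter, a filter at a mean of 5 RPKM, a pseudocount of 0.1, rescaling to summed reads, upper-quartile scaling, limma-voom on the recovered reads and a threshold of 2-fold. Cftr, also missed by the symbol pattern, was looked for and was not in the files.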

Additional observations from a re-analysis of the deposited data

How the results depend on the processing

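Abca3, Abcb10 and Abcd4 kept their calls under every alternative that tested them, except that Abcb10 fell out of the filter at a mean of 5 RPKM. Members called higher numbered 3 after the length correction, 4 with the replicate block and that correction, 5 after the length and GC correction and 4 at 2-fold, against 9 on the deposited scale, and members called lower numbered 2, 2, 1 and 1, against 1. Members called lower numbered 0 after rescaling to summed reads and 0 after upper-quartile scaling, which moved the median change of all tested genes by 0.75 and 0.21. Leaving out 1 library gave 5 (without stem-labelled replicate 3) to 9 members higher, and 0 (without stem-labelled replicate 1 or 2) to 2 (without stem-labelled replicate 3) lower. Over all tested genes, calls higher numbered 1405 at a mean of 5 RPKM, 5926 after rescaling and 1487 at 2-fold, against 3014, and calls lower numbered 1245 after rescaling, against 2563.

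Abcb1b changed by 0.27 after the length correction, with or without the block, 0.12 after the length and GC correction, 0.83 with no filter (adjusted p = 0.110), 0.87 in limma-voom (adjusted p = 0.0566), 0.83 at 2-fold, which it does not reach, and 0.55 to 1.11 without 1 library. Abcc1 changed by -0.062 after the length correction, with or without the block, -0.40 after the length and GC correction, 0.66 at 2-fold, which it does not reach, and 0.61 to 0.75 without 1 library. With a pseudocount of 0.1 the untested differences were -0.91 for Abcb1a and -1.79 for Abcg2, and Abcg2 stood at -0.28 after rescaling. Abcc4 was not called with the block, no filter, a pseudocount of 0.1 or limma-voom (adjusted p 0.0508 to 0.119), nor Abcd3 with the block, no filter or limma-voom (adjusted p 0.0713 to 0.117). Abcc3 was called with the block, a mean of 5 RPKM, a pseudocount of 0.1 and both rescalings (adjusted p 0.00268 to 0.0462).

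Changes turned direction as follows, and the cause was not tested beyond what each setting does by construction. After rescaling, Abca7 stood at 0.51, Abcb8 at 0.58, Abcf2 at 0.59 and Abcf3 at 0.80 (called higher), and after upper-quartile scaling Abcf3 at 0.16. After the length correction, with or without the block, Abcc10 stood at -0.48 and Abcf1 at -0.13. After the length and GC correction, Abcc4 stood at -0.13, Abcc5 at -0.025, Abcc10 at -0.12 and Abcf1 at -0.075. In limma-voom, Abcc10 stood at -0.097 and Abcf1 at -0.077. Without 1 library, Abca7 ranged from -0.52 to 0.10, Abcc10 from -0.25 to 0.18 and Abcf1 from -0.042 to 0.20.

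The replicate numbers did not pair the libraries: same-numbered libraries correlated at -0.12, 0.03 and -0.08 in their deviations from the group means, and no stem-labelled library correlated best with its own number. With the replicate block, 8 members were called higher and 1 lower, and 2735 of all tested genes higher and 2477 lower. Fits without a stem-labelled library dropped Abcc5 by the filter, and members below 1 RPKM had no test. At 3 libraries a group, differences near the spread between libraries were not detectable.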
